A study of Mus musculus with 36 samples.

Results

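The complement genes described here are 9 of the 55421 genes in a count table of mouse hippocampal slices. They are picked by symbol, through the Ensembl identifiers of the table, by a list drawn up with earlier results of these data known. The members are the 3 chains of C1q (C1qa, C1qb and C1qc), C3, C4b, Cfb, Serping1 and the receptors C3ar1 and C5ar1. All 9 passed the filter on low counts that left 19478 genes for testing.

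RNA came from slices of the right hippocampus of 18 mice aged 16 months. Wild-type mice were C57BL/6 (WT). T41B mice carried human APP with the London and Swedish mutations (Thy1-hAPPLond/Swe, Line 41), an amyloid model in which the Thy1 promoter cassette drives the transgene mainly in neurons. All mice had been gavaged for 3 months, from 13 months of age, with vehicle (VEH) or with BD10-2, a small-molecule ligand of the neurotrophin receptors TrkB and TrkC. A slice either received theta-burst stimulation, 3 rounds of 10 bursts of 4 pulses, or went through a sham procedure of equal length, and was then frozen. With vehicle, 4 WT and 4 T41B mice each gave both a sham and a stimulated slice. With BD10-2, the sham and the stimulated group each held 3 WT or 5 T41B mice, of which 2 WT and 4 T41B mice gave both slices, so 14 of the 18 mice did so in all.

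Complement is a cascade of secreted proteins that tags surfaces for removal and releases signalling peptides. In the classical pathway C1q, assembled from its 3 chains, binds a target and activates proteases that cleave C4 and then C3. Factor B, the product of Cfb, builds the alternative pathway's C3 convertase, and the C1 inhibitor, the product of Serping1, blocks the C1 proteases. Fragments of C3 and C5 act on cells through C3ar1 and C5ar1, and pieces of C3 that stay on a surface are recognised by integrin receptors. In the brain, C1q comes mostly from microglia, and complement is known for marking synapses for removal in development and around amyloid.

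The 3 C1q genes lie side by side on chromosome 4 of GRCm38, in the GENCODE M21 annotation, all on the minus strand. C1qb (ENSMUSG00000036905) is at chr4:136880129-136886187, C1qc (ENSMUSG00000036896) at chr4:136889804-136893065 and C1qa (ENSMUSG00000036887) at chr4:136895917-136898803, each with 3 merged exons. C4b (ENSMUSG00000073418, chr17:34728380-34743882) and Cfb (ENSMUSG00000090231, chr17:34856374-34862518) lie in the same region of chromosome 17, and C3 (ENSMUSG00000024164) is at chr17:57203970-57228136. C3ar1 (ENSMUSG00000040552) is at chr6:122847138-122856161, C5ar1 (ENSMUSG00000049130) at chr7:16246743-16259540 and Serping1 (ENSMUSG00000023224) at chr2:84765387-84775444.

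RefSeq's promoter windows of build GRCm38.p6 cover 250 bases before to 50 bases after a gene's start, and 5 of the 9 members were found in that table. The windows of C1qb and C1qc are shown because these neighbouring genes responded unequally to stimulation, and those of C3ar1 and C5ar1 because these receptors rose together. All 4 lie on the minus strand and are written 5′ to 3′ in gene direction, at chr4:136886151-136886450, chr4:136892865-136893164, chr6:122856108-122856407 and chr7:16259289-16259588. Capitals mark motif matches.
C1qb: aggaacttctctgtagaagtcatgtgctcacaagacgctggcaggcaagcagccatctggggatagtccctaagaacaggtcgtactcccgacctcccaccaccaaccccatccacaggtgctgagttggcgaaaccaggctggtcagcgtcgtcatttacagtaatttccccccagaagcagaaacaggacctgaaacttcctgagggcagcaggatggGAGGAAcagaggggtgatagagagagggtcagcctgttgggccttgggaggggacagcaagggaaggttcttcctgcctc
C1qc: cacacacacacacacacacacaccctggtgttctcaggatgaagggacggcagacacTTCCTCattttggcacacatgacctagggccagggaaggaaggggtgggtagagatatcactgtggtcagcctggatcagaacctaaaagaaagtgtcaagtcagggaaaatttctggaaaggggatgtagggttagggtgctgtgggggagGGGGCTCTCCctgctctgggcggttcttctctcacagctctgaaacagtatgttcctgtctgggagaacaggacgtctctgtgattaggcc
C3ar1: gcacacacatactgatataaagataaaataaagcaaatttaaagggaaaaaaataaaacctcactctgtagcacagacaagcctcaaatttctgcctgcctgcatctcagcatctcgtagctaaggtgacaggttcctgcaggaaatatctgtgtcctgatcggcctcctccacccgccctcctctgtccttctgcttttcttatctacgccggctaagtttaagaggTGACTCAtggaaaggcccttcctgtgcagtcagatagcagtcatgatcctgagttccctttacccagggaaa
C5ar1: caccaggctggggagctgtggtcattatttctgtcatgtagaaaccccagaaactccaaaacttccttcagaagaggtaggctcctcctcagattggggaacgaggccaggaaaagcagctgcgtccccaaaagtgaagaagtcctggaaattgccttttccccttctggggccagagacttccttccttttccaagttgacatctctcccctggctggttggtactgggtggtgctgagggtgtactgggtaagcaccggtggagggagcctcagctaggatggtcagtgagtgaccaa

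The windows were searched on both strands for a PU.1 core (GAGGAA), AP-1 (TGANTCA), C/EBP (TTGCNNAA), STAT (TTCNNNGAA) and the NF-kappaB consensus. The C1qb window holds the PU.1 core at bases -30 to -25 from the start, and the C1qc window holds it on the other strand at -193 to -188. Of 32851 RefSeq promoter windows of the same length, 28.3% hold this core. C1qc also has a match to the NF-kappaB consensus at -41 to -32, a pattern in 8.5% of windows. C3ar1 has an AP-1 match at -22 to -16 (7.8% of windows), and the C3 window, which is not shown, has a C/EBP match at -45 to -38 (10.8%). C5ar1 held no match to any of these letters, and the STAT letters, found in 8.3% of windows, were in no member's window. The matches are descriptions of letters, not of bound sites.

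Library totals ran from 11597555 to 28125842 expected counts, with a median of 18082415, and mitochondrial genes took 2.0% to 5.4%. Thy1, part of the transgene cassette, lay between 255 and 400 CPM (counts scaled to equal library totals, here without TMM scaling) in the 16 WT libraries and between 880 and 2412 in the 20 T41B libraries, without overlap. Its lowest T41B value belongs to 1 of 2 libraries labelled as the stimulated slice of Mouse1592, whose other library held 1909. C1qa was 60.3 and 110 CPM in these 2 libraries, which were summed, and whether both hold RNA of that slice alone was not tested. Without Mouse1592, 9 of 9 members were still called for genotype in BD10-2 stimulated slices. In 6 vehicle samples Ttr, a choroid plexus transcript, reached 90.1 to 1072 CPM, against at most 9.48 in the other samples. They were the stimulated WT slices of Mouse1509 and Mouse1513 in batch E and both slices of T41B Mouse1551 and Mouse1553 in batch G. Calls that changed without these samples are given beside the values below. Values also shifted where a call stayed. The C1qa log2 fold change of T41B over WT in vehicle stimulated slices went from 2.04 to 1.51. That of stimulated over sham slices in vehicle WT mice went from -1.01 to -0.69.

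Levels per length show which complement transcripts the slices held. CPM below are scaled by TMM, and CPM per kb divides them by the gene's exonic length. In the 7 WT sham slices of both treatments the median was 27.8 CPM per kb for C1qa (range 24.7 to 33.5), 25.1 for C1qb (23.9 to 34.2), 22.1 for C4b (16.9 to 26) and 13.7 for C1qc (11.8 to 18.7). These 4 neighbours in the order overlapped in range. All other members lay far lower, with overlapping ranges for C3ar1 (median 1.01), Serping1 (0.965), C5ar1 (0.854) and C3 (0.599). Cfb was lowest at 0.0370 CPM per kb, and its highest slice, at 0.0766, was below the lowest C3 value of 0.357. In the 9 T41B sham slices the medians per kb were 118 for C1qa, 104 for C1qb, 74.8 for C4b, 59.8 for C1qc, 3.10 for C3ar1, 2.66 for Serping1, 2.17 for C3, 2.09 for C5ar1 and 0.0614 for Cfb.

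**Figure D1:**
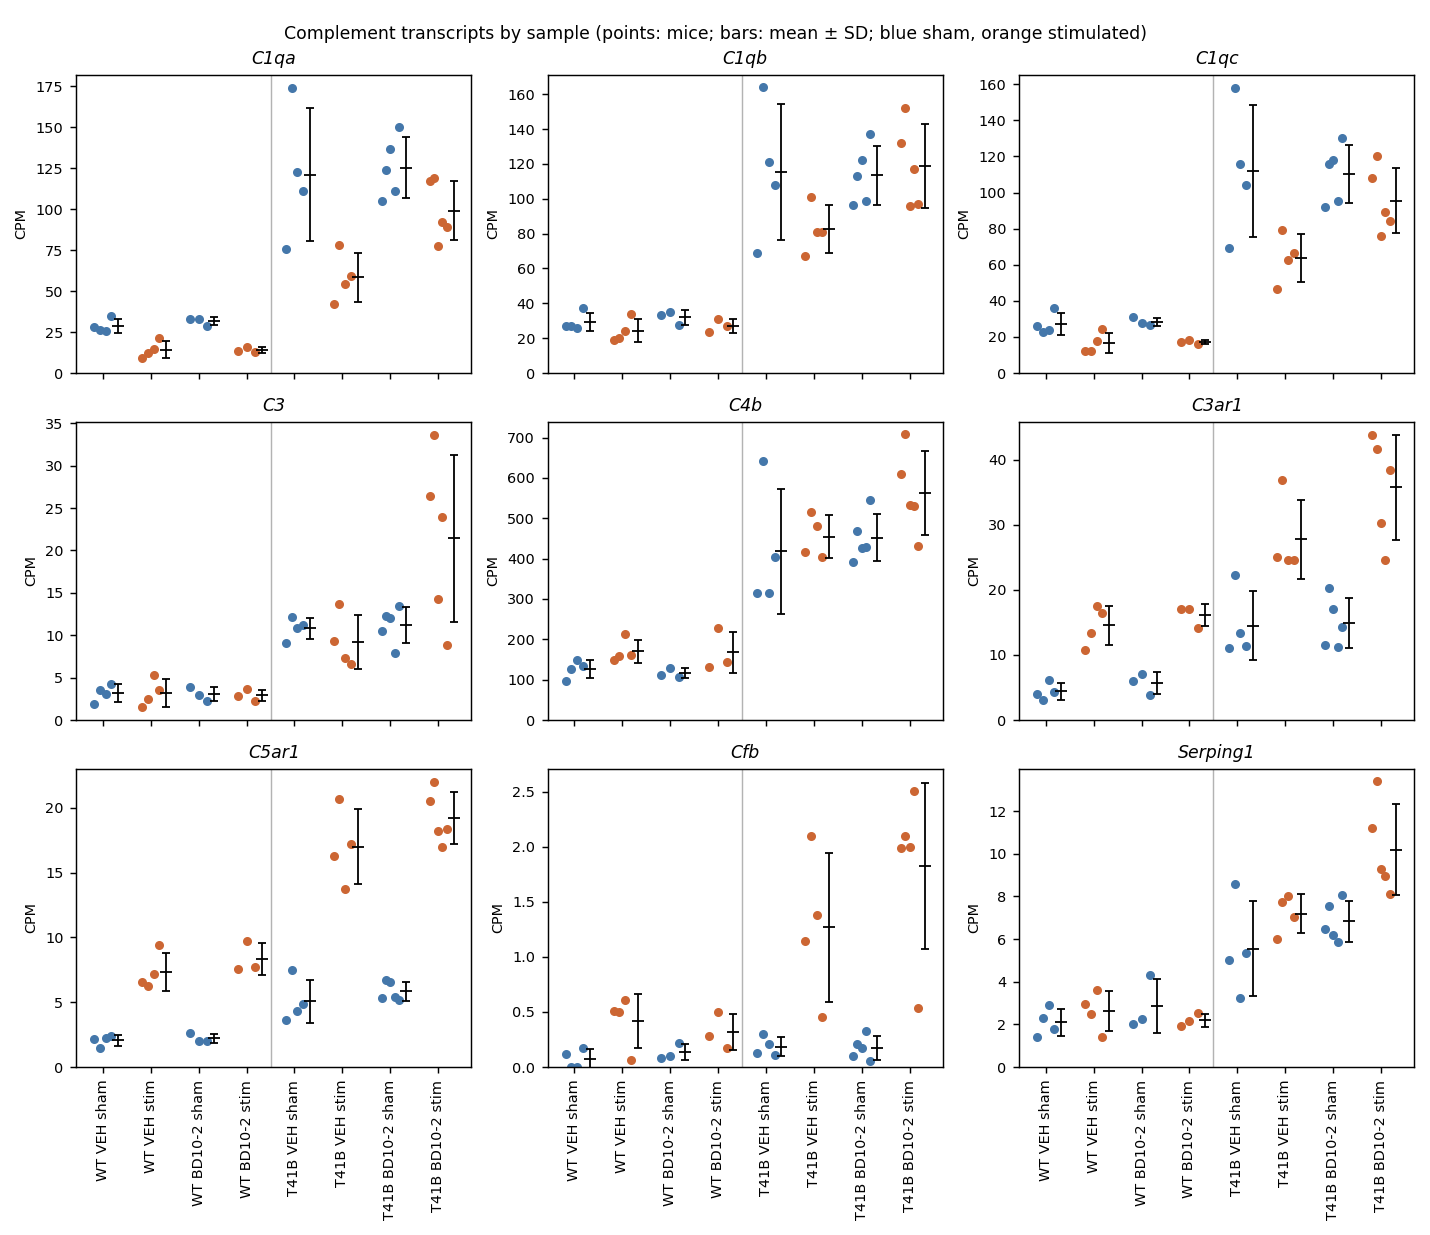
Level of each member in CPM (vertical axes, linear from 0) for every sample of the 8 groups, with points for mice and bars for the mean ± SD, cut at 0. The 4 T41B groups stand to the right of the grey line: for every member except Cfb, all T41B samples lie above the WT samples of the same treatment and stimulation. The share of all genes tested that separate in this way is not given here.

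The genotype comparisons asked how complement transcripts differ between T41B and WT mice within each treatment and stimulation. Of the 9 members, 8 were called higher in T41B mice in all 4 comparisons, by 1.9 to 7.4-fold, and the exception was Cfb. These values come from a fit without batch. With batch as a covariate every vehicle value was smaller, as given below. Calls required a p below 0.05 in edgeR after Benjamini-Hochberg (BH) adjustment over all genes tested. With vehicle, 8 of 9 members were called higher in sham slices, where 5.0% of all genes tested were called higher and 1.24% lower, and 8 of 9 in stimulated slices, where these shares were 4.74% and 1.05%. With BD10-2, 8 of 9 were called higher in sham slices (all genes: 4.31% higher, 1.14% lower) and 9 of 9 in stimulated slices (8.19% higher, 2.36% lower). No member was called lower. The median log2 fold change over the members was 1.73, 1.51, 1.82 and 2.20 in this order, against 0.00, -0.03, 0.01 and -0.02 over all genes tested. These comparisons share samples with the stimulation and treatment comparisons below.

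C1qa, the A chain of C1q, was 27.8, 26.2, 25.7 and 34.9 CPM in vehicle WT sham slices and 75.9, 174, 123 and 111 CPM in T41B sham slices. Every T41B value exceeded every WT value, and the T41B mice ranged over a factor of more than 2. This was a log2 fold change of 2.08 (SE 0.22, edgeR BH-adjusted p = 2.83e-07). In stimulated slices C1qa was 9.17, 12, 14.6 and 21.5 CPM in WT and 41.9, 78.1, 54.5 and 59.4 CPM in T41B mice with vehicle, a log2 fold change of 2.04 (SE 0.23). With BD10-2 it was 33.2, 32.9 and 29 CPM in WT sham slices and 105, 124, 137, 111 and 150 CPM in T41B sham slices (1.98, SE 0.24). Stimulated slices with BD10-2 showed the widest gap, at 13.5, 15.9 and 12.6 CPM in WT and 117, 119, 77.7, 92.5 and 89.1 CPM in T41B mice (2.83, SE 0.25, edgeR BH-adjusted p = 1.57e-08).

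The other chains followed closely. C1qb showed log2 fold changes of 1.98 and 1.77 with vehicle and 1.82 and 2.14 with BD10-2 in sham and stimulated slices, and C1qc had 2.04, 1.95, 1.96 and 2.48, with SEs of 0.21 to 0.24. Groups did not overlap in any of these comparisons. In vehicle sham slices C1qb was 29.2 ± 5.35 CPM in WT and 115 ± 38.9 CPM in T41B mice (SD, n = 4 each), and C1qc was 27.2 ± 6.08 and 112 ± 36.9 CPM (SD, n = 4 each).

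C3, the component on which the pathways converge, was scarcer. With vehicle it was 1.84, 3.53, 3.08 and 4.27 CPM in WT and 9.13, 12.1, 10.8 and 11.2 CPM in T41B sham slices, a log2 fold change of 1.77 (SE 0.35, edgeR BH-adjusted p = 0.00163). The groups were apart, and within the T41B group the 4 mice lay close together. Log2 fold changes were 1.51 (SE 0.35) in vehicle stimulated slices, 1.85 (SE 0.36) in BD10-2 sham slices and 2.90 (SE 0.38) in BD10-2 stimulated slices. With batch as a covariate the vehicle values became 1.25 in sham (edgeR BH-adjusted p = 0.111) and 1.03 in stimulated slices (0.116) and were not called. Without the samples high in Ttr the stimulated vehicle value became 0.84 (edgeR BH-adjusted p = 0.462), with 2 mice left in each group.

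C4b, the member with the highest CPM and the C1-cleaved component next in the classical pathway, ranged from 96.3 to 148 CPM in vehicle WT sham slices and from 314 to 642 CPM in T41B sham slices. Its log2 fold changes were 1.73 (SE 0.20) and 1.42 (SE 0.20) with vehicle and 1.96 (SE 0.22) and 1.75 (SE 0.21) with BD10-2, in sham and stimulated slices. C4b has a near-identical neighbour, C4a, between which RSEM had to divide reads, so its count is uncertain. Serping1, the inhibitor acting just upstream of C4, rose with it: log2 fold changes were 1.41 (SE 0.28), 1.43 (SE 0.27), 1.29 (SE 0.28) and 2.20 (SE 0.29) in the same order of groups. In vehicle sham slices Serping1 was 1.42, 2.31, 2.89 and 1.79 CPM in WT and 5, 8.59, 3.24 and 5.35 CPM in T41B mice, with the lowest T41B slice just above the highest WT slice. The call in BD10-2 sham slices (edgeR BH-adjusted p = 0.00430) was lost without WT Mouse1565 (0.0730) or Mouse1571 (0.0504), and that in vehicle stimulated slices without the samples high in Ttr (0.0649).

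Both receptors were higher in T41B mice as well. C3ar1, the receptor for the C3 fragment, showed log2 fold changes of 1.72 (SE 0.26) and 0.93 (SE 0.23) with vehicle and 1.38 (SE 0.26) and 1.16 (SE 0.25) with BD10-2, in sham and stimulated slices. The value in vehicle stimulated slices (edgeR BH-adjusted p = 0.0120) was the smallest called among the members, and it was lost with batch as a covariate (0.45, adjusted p = 0.238), without WT Mouse1509 (0.81, 0.0667) and without the samples high in Ttr (0.56, 0.436). C5ar1, the receptor for the C5 fragment, varied least between comparisons, at 1.29 (SE 0.20), 1.21 (SE 0.17), 1.37 (SE 0.20) and 1.21 (SE 0.18). Its genotype calls held under every alternative setting run, as did those of C1qa, C1qb, C1qc and C4b.

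Cfb, the alternative pathway's protease, was near the limit of detection in sham slices, with 5 counts in all over the 4 vehicle WT slices. Its log2 fold change was 1.21 (SE 0.90, edgeR BH-adjusted p = 0.443) in vehicle sham slices and 0.38 (SE 0.78, 0.834) in BD10-2 sham slices. Neither was called, and the 95% intervals were wide, at -0.62 to 3.05 and -1.22 to 1.97. In stimulated slices it was 1.55 (SE 0.51, 0.0735) with vehicle and 2.57 (SE 0.56, edgeR BH-adjusted p = 0.00211) with BD10-2. The vehicle value was called when Mouse1579 (1.81, 0.0320) or Mouse1592 (1.55, 0.0362) was left out, the second a BD10-2 mouse that enters only through the joint fit. Cfb shares much of its exonic sequence with the gene model Gm20547 on the same strand, so its counts are uncertain.

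**Figure D2:**
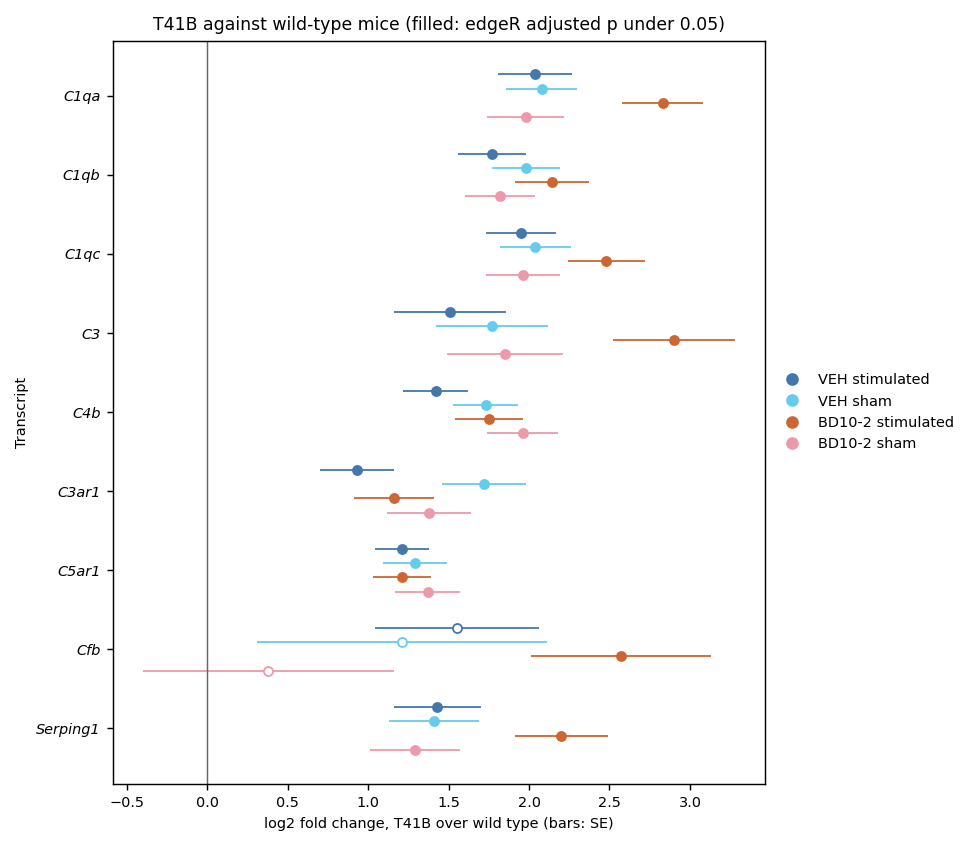
Log2 fold change of T41B over WT mice for each member (horizontal axis) in the 4 combinations of treatment and stimulation, with SE bars; filled points are called and open points are not. C1qa runs from 1.98 to 2.83 and C5ar1 from 1.21 to 1.37, while 3 of the 4 Cfb points are open.

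Batches were compared separately, since labels give 8 and 5 of them hold both genotypes. In 7 combinations of batch and stimulation with both genotypes, on the log2(CPM + 1) scale, each of the 8 members other than Cfb was higher in T41B mice in 7 of 7. These combinations come from 4 batches, and in 2 of them the sham and stimulated slices are from the same pair of mice. Batch I also shares mice between its sham and stimulated slices, so the 7 are not independent. In batches A, C and D each combination holds 1 T41B and 1 WT sample. The share of all genes higher in 7 of 7 is not given here. The within-batch difference was 1.43 to 2.45 for C1qa (median 1.65), 0.69 to 2.21 for C3 (median 1.21), 0.98 to 2.33 for C4b (median 1.57) and 0.50 to 1.08 for C5ar1 (median 0.96). Cfb was higher in 5 of 7.

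Microglial markers moved in the same direction. Of 10 microglial markers 9 passed as higher in T41B slices in vehicle sham slices, 5 in vehicle stimulated, 8 in BD10-2 sham and 10 in BD10-2 stimulated slices, and 0 lower. Their summed level was 250 to 317 CPM in vehicle WT and 491 to 837 CPM in vehicle T41B sham slices. C1qa amounted to 9.41% to 11% of that sum in WT and 15.5% to 20.7% in T41B sham slices, so the groups did not overlap relative to these markers either. C5ar1 amounted to 0.517% to 0.907% and 0.715% to 0.891% of it, with overlap. In bulk tissue, more cells of a type and more RNA per cell cannot be told apart. Of 7 astrocyte markers 2, 2, 2 and 5 were called higher, in the same order. Gfap, an astrocyte filament gene, showed log2 fold changes of 2.06, 1.64, 2.18 and 2.11 over the 4 comparisons. Of 7 neuron markers 1, 2, 2 and 0 were called lower, in the same order. Of 9 choroid plexus markers 1 was called higher in vehicle sham slices (median 1.94) and 2 lower in vehicle stimulated slices (median -2.52), and none with BD10-2. Markers of monocytes and neutrophils summed to at most 1.20 CPM in any sample, and Ly6g, a neutrophil marker, was at 0 in 31 of 32 samples. The part of cell numbers in the genotype differences was not tested.

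The stimulation comparisons asked how complement transcripts differ between stimulated and sham slices. The members split. The receptors C3ar1 and C5ar1 rose in all 4 combinations of genotype and treatment, by 1.9 to 3.7-fold. In the fit without a mouse block, C1qa fell in 3 of the 4 and C1qc in 2, whereas C1qb and C4b were called in none. Cfb rose in 3 of 4, and C3 passed in BD10-2 T41B mice. With the mouse as a fixed replicate block, C1qa in BD10-2 T41B, C1qb in vehicle T41B and C1qc in BD10-2 WT mice were also called lower. The C3 call was then lost. The counts that follow are without the block. Of the 9 members, 3 were called higher and 2 lower in vehicle WT mice (all genes tested: 8.21% higher, 4.10% lower), and 3 higher and 2 lower in vehicle T41B mice (11.7% and 9.83%). In BD10-2 mice 2 were called higher and 1 lower in WT (6.29% and 2.58%) and 4 higher and 0 lower in T41B mice (13.3% and 9.52%). Members' median log2 fold changes were 0.34, 0.12, -0.12 and 0.57, against -0.01, -0.05, -0.01 and -0.04 over all genes.

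C5ar1 was 2.19, 1.44, 2.26 and 2.37 CPM in vehicle WT sham slices and 6.53, 6.23, 7.17 and 9.40 CPM in stimulated slices of the same mice. Vehicle T41B mice had 3.63, 7.45, 4.36 and 4.83 CPM in sham and 16.3, 20.7, 13.7 and 17.2 CPM in stimulated slices. Each stimulated slice was above every sham slice of its group, and the same held with BD10-2. C5ar1 had 2.60, 2.04 and 2.00 CPM in BD10-2 WT sham and 7.54, 9.74 and 7.68 CPM in stimulated slices. In BD10-2 T41B mice it had 5.36, 6.74, 6.53, 5.44 and 5.19 CPM in sham and 20.5, 22, 18.2, 17 and 18.4 CPM in stimulated slices. The log2 fold changes were nearly equal, at 1.81 (SE 0.20), 1.73 (SE 0.18), 1.87 (SE 0.21) and 1.72 (SE 0.16) in vehicle WT, vehicle T41B, BD10-2 WT and BD10-2 T41B mice, with edgeR BH-adjusted p of 1.04e-07, 1.83e-08, 4.58e-07 and 9.39e-10. Within the 14 mice with both slices, C5ar1 was higher in the stimulated slice in 14, by a median of 1.57 on the log2(CPM + 1) scale (range 1.24 to 1.90).

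C3ar1 rose in the same samples. It was 4.03, 3.03, 6.22 and 4.33 CPM in vehicle WT sham and 10.8, 13.3, 17.5 and 16.5 CPM in stimulated slices. In vehicle T41B mice it was 11.1, 22.3, 13.3 and 11.3 CPM in sham and 25.1, 36.8, 24.6 and 24.5 CPM in stimulated slices. Sham and stimulated groups did not overlap, also with BD10-2, where WT means were 5.66 and 16.1 CPM and T41B means 14.9 and 35.7 CPM. Log2 fold changes were 1.71 (SE 0.26), 0.93 (SE 0.23), 1.49 (SE 0.28) and 1.27 (SE 0.21), in the order given for C5ar1, and C3ar1 was higher in the stimulated slice of 14 of 14 mice.

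C1qa moved the other way. With vehicle, WT slices fell from 28.6 ± 4.26 to 14.3 ± 5.25 CPM (SD, n = 4 each) and T41B slices from 121 ± 40.4 to 58.5 ± 15 CPM (SD, n = 4 each). The log2 fold changes were -1.01 (SE 0.22, edgeR BH-adjusted p = 0.00246) and -1.05 (SE 0.21, 0.000539). BD10-2 WT mice had -1.19 (SE 0.26, 0.00234). In BD10-2 T41B mice C1qa was 125 ± 18.6 CPM in sham and 99.1 ± 18.1 CPM in stimulated slices (SD, n = 5 each), which was not called, at a log2 fold change of -0.34 (SE 0.19, edgeR BH-adjusted p = 0.203). With the mouse as a replicate block this value was -0.39 and was called (edgeR BH-adjusted p = 0.0272). It was also called with batch as a covariate (-0.38, edgeR BH-adjusted p = 0.0289) and with the random replicate block in limma (-0.36, BH-adjusted p = 0.0458). Within mice C1qa was lower in the stimulated slice in 14 of 14, by a median of -0.87 on the log2(CPM + 1) scale, ranging from -1.50 to -0.09.

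The 3 chains of the same protein changed unequally. C1qc showed log2 fold changes of -0.72 (SE 0.22, edgeR BH-adjusted p = 0.0297) in vehicle WT, -0.81 (SE 0.21, 0.00519) in vehicle T41B, -0.72 (SE 0.25, 0.0680) in BD10-2 WT and -0.20 (SE 0.18, 0.468) in BD10-2 T41B mice. C1qb had -0.27 (SE 0.21), -0.48 (SE 0.20), -0.25 (SE 0.23) and 0.07 (SE 0.18), none of them called. With the mouse as a replicate block C1qb was called in vehicle T41B mice (-0.43, edgeR BH-adjusted p = 0.0145) and C1qc in BD10-2 WT mice (-0.72, 0.0145). Without the block, C1qb in vehicle T41B mice was called with batch as a covariate (-0.43, edgeR BH-adjusted p = 0.0218) and when Mouse1510 was left out (-0.57, edgeR BH-adjusted p = 0.0446). The random replicate block in limma also called it (-0.43, BH-adjusted p = 0.0260). C1qc in BD10-2 WT mice was called by DESeq2 (adjusted p = 0.0393), with the random replicate block in limma (BH-adjusted p = 0.0158), and by edgeR with batch as a covariate (BH-adjusted p = 0.00857), with only these groups fitted (0.00162), without the samples high in Ttr (0.0189) and without Mouse1510, Mouse1524 or Mouse1551 (0.0301, 0.0375 and 0.0440). The vehicle WT call of C1qc was lost without Mouse1509 (edgeR BH-adjusted p = 0.152), Mouse1513 (0.100) or Mouse1522 (0.0528), in a fit of only the groups compared (0.0796) and without the samples high in Ttr (-0.39, 0.238). Its vehicle T41B call was also lost without those samples (-0.61, 0.135).

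The ratio of C1qa to C1qb within a sample, which does not depend on library scaling, separated the slices. It lay between 0.931 and 1.12 in the 16 sham samples (median 1.05) and between 0.470 and 0.920 in the 16 stimulated samples (median 0.655), without overlap. The ratio was lower in the stimulated slice in 14 of 14 mice, by a factor of 0.470 to 0.839. In vehicle mice the stimulated ratio was 0.486 to 0.637 in WT and 0.622 to 0.771 in T41B slices, which overlap, and in BD10-2 mice it was 0.470 to 0.581 and 0.782 to 0.920, which do not. For C1qc over C1qb the ranges were 0.778 to 1.02 in sham and 0.595 to 0.870 in stimulated samples, with overlap, and the ratio fell within 14 of 14 mice. These ratios were chosen after the values were seen and were not tested.

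**Figure D3:**
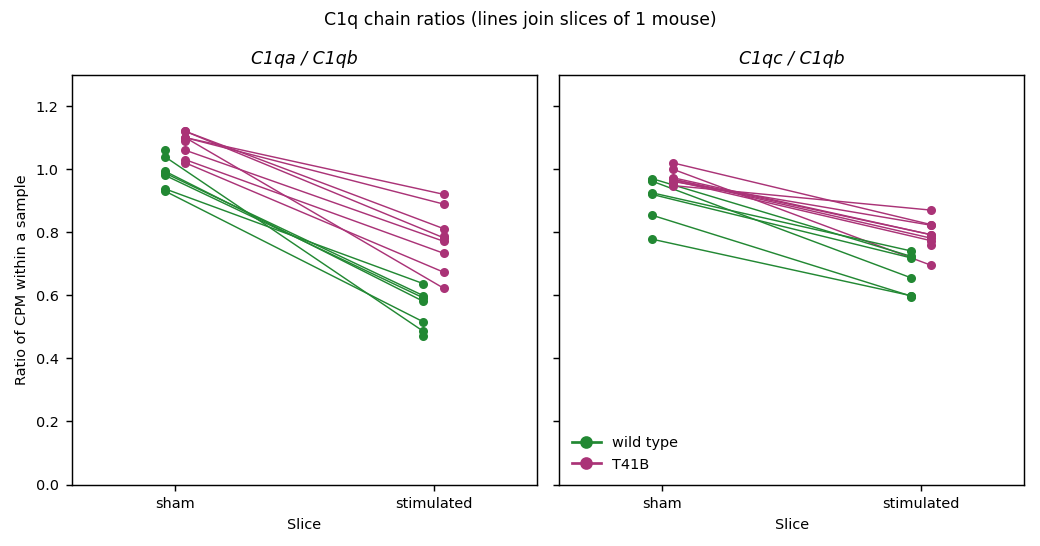
Ratio of C1qa (left) or C1qc (right) to C1qb CPM within a sample (vertical axis, from 0) in sham and stimulated slices of WT and T41B mice, with lines joining slices of the same mouse. Every line slopes down, and in the left panel no stimulated sample (highest 0.920) reaches a sham sample (lowest 0.931).

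Cfb, although scarce, had the largest log2 fold change of the members in 3 of the 4 groups. In vehicle T41B mice it was 0.125, 0.296, 0.213 and 0.105 CPM in sham and 1.14, 2.10, 1.38 and 0.456 CPM in stimulated slices. In BD10-2 T41B mice it was 0.103, 0.207, 0.173, 0.330 and 0.0530 CPM in sham and 1.99, 2.10, 2.00, 2.51 and 0.532 CPM in stimulated slices. The groups did not overlap in either. In vehicle WT mice they did overlap, at 0.119, 0, 0 and 0.173 CPM in sham and 0.509, 0.496, 0.605 and 0.0615 CPM in stimulated slices. Within mice Cfb was higher in the stimulated slice in 13 of 14, and it was lower in vehicle WT Mouse1524. Log2 fold changes were 2.72 (SE 0.58, edgeR BH-adjusted p = 0.00103) and 3.47 (SE 0.53, 8.06e-06) in these T41B mice, and 2.39 (SE 0.78, 0.0430) in vehicle and 1.28 (SE 0.78, 0.348) in BD10-2 WT mice.

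The Cfb calls rest on few reads. Summed over a group's slices, Cfb had 35 counts in stimulated against 5 in sham slices in vehicle WT mice, a ratio after scaling to library size of 5.66 (95% interval 2.21 to 18.5). It had 94 against 14 in vehicle T41B mice (6.80, 3.86 to 12.9), 21 against 10 in BD10-2 WT mice (2.49, 1.12 to 5.92) and 167 against 17 in BD10-2 T41B mice (10.1, 6.12 to 17.7). These exact intervals cover counting error only. The vehicle WT call was lost with any of Mouse1509 (edgeR BH-adjusted p = 0.125), Mouse1510 (0.0507), Mouse1513 (0.167), Mouse1522 (0.221), Mouse1563 (0.0503), Mouse1564 (0.0517) and Mouse1565 (0.0522) left out, where mice of other groups enter only through the joint fit. It was also lost with no filter on low counts (0.0510), with the mouse as a random replicate block in limma (0.0698) and with the first library of same-label pairs alone (0.0687). Without the samples high in Ttr, neither vehicle call stood (WT 2.13, 0.140; T41B 2.78, 0.0962).

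C3 itself did not pass in 3 of the 4 stimulation comparisons, with log2 fold changes of 0.03 (SE 0.37), -0.23 (SE 0.32) and -0.12 (SE 0.41) in vehicle WT, vehicle T41B and BD10-2 WT mice. In BD10-2 T41B mice it was 10.5, 12.3, 12, 7.92 and 13.5 CPM in sham slices and 26.4, 33.6, 14.3, 23.9 and 8.89 CPM in stimulated slices. Of the stimulated slices 4 were above every sham slice and that of Mouse1592 was not. The log2 fold change of 0.92 (SE 0.28, edgeR BH-adjusted p = 0.0171) was not called with the mouse as a replicate block (0.72, 0.0633), without Mouse1563 (0.86, 0.0610), without Mouse1564 (0.72, 0.113) or with the first library of same-label pairs alone (0.85, 0.0527), which for Mouse1592 is the library low in Thy1. Without Mouse1592 it was called (1.19, 0.00195).

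C4b and Serping1 were not called after stimulation in any group. C4b showed log2 fold changes of 0.43 (SE 0.19), 0.12 (SE 0.19), 0.52 (SE 0.22) and 0.32 (SE 0.17), and it was higher in the stimulated slice of 12 of 14 mice. Its vehicle WT value was called with the mouse as a random replicate block in limma (BH-adjusted p = 0.0469). Serping1 had 0.34 (SE 0.29), 0.37 (SE 0.26), -0.34 (SE 0.32) and 0.57 (SE 0.23). The last, in BD10-2 T41B mice, had an edgeR BH-adjusted p of 0.0661 although its groups did not overlap. It was called by DESeq2 (0.59, adjusted p = 0.0430), with the random replicate block in limma (0.53, BH-adjusted p = 0.0118), with batch as a covariate (0.63, edgeR BH-adjusted p = 0.0454), with only these groups fitted (0.58, 0.0140), without the samples high in Ttr (0.57, 0.0487) and without any of Mouse1524, Mouse1551, Mouse1553, Mouse1590 and Mouse1592 (edgeR BH-adjusted p = 0.0399 to 0.0496). With the mouse as a fixed replicate block it was not called (0.58, 0.0599). Of the 2 stimulated libraries of Mouse1592, 1 held 4.32 and the other 11 CPM of Serping1 without TMM scaling.

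**Figure D4:**
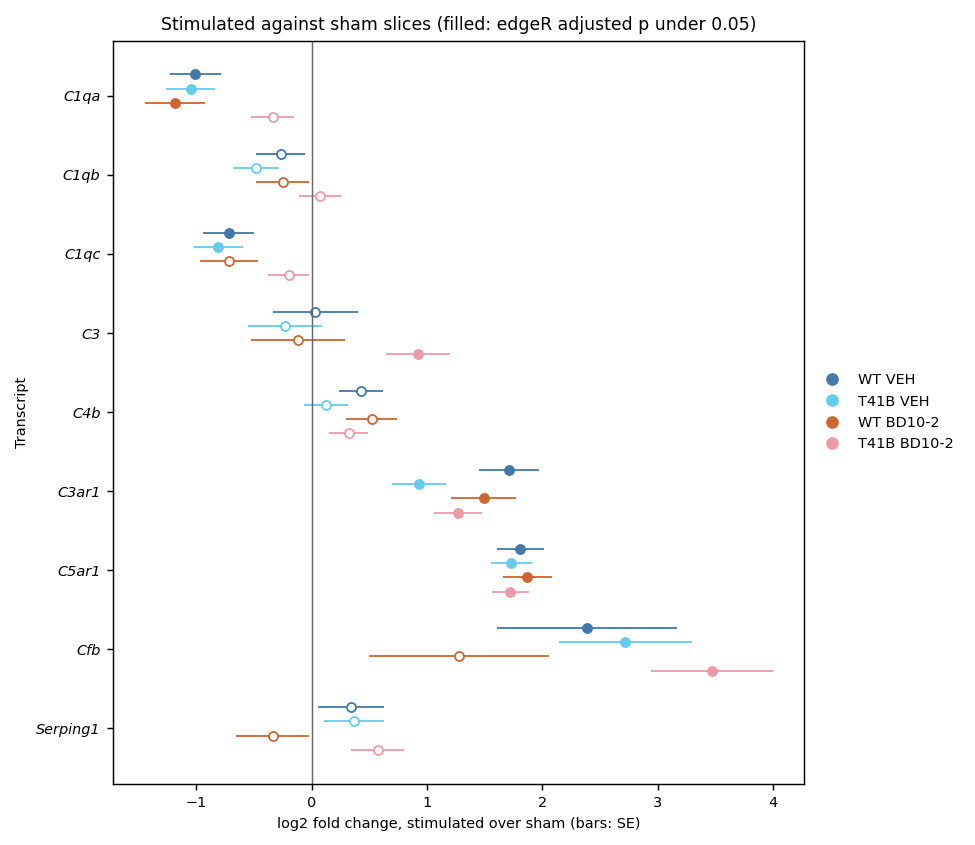
Log2 fold change of stimulated over sham slices for each member (horizontal axis) in the 4 combinations of genotype and treatment, with SE bars; filled points are called and open points are not. C3ar1 and C5ar1 are to the right of 0 with filled points throughout, and C1qa is to the left, at -1.19 to -0.34.

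Microglial markers fell after stimulation while the receptors rose. Of the 10 markers 6 were called lower in vehicle WT, 7 in vehicle T41B, 6 in BD10-2 WT and 7 in BD10-2 T41B mice, and 0 higher. Their summed level went from 250 to 317 CPM in sham to 121 to 183 CPM in stimulated slices of vehicle WT mice, and from 491 to 837 to 265 to 358 CPM in vehicle T41B mice. C5ar1 amounted to 0.517% to 0.907% of that sum in sham and 4.62% to 5.40% in stimulated slices of vehicle WT mice, and C1qb to 9.59% to 11.7% and 15.3% to 18.4%. The share of C1qa went different ways between groups. It was 9.41% to 11% in sham and 7.58% to 11.7% in stimulated slices of vehicle WT mice and 15.5% to 20.7% and 15.8% to 21.8% in vehicle T41B mice, with overlap. In BD10-2 WT mice it was lower after stimulation, at 10.1% to 10.9% and 9.15% to 9.60%, and in BD10-2 T41B mice higher, at 16% to 20.6% and 21.4% to 31.4%, both without overlap. Of 7 astrocyte markers 3, 4, 0 and 3 were called higher and 0 lower in vehicle WT, vehicle T41B, BD10-2 WT and BD10-2 T41B mice. Of 5 endothelial markers 1, 2, 1 and 2 were called higher and 1 lower in each. Of 7 neuron markers 1, 0, 2 and 2 were called lower, with medians of -0.16, -0.20, -0.25 and -0.13, and of 3 hippocampal neuron markers 0, 1, 1 and 1 were called lower. All 9 choroid plexus markers were called higher in vehicle WT mice after stimulation, where 2 of the 4 stimulated slices were high in Ttr. Without the 6 samples high in Ttr, C1qa, C3ar1 and C5ar1 were still called in both vehicle comparisons. The part of cell numbers in the stimulation differences was not tested.

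The treatment comparisons asked whether BD10-2 shifted these transcripts against vehicle. No member was called in any of the 4 comparisons, and 0% of all genes tested were called in sham WT, stimulated WT, sham T41B and stimulated T41B slices. At an unadjusted p under 0.05 edgeR gave 0, 0, 0 and 5 of the 9 members, and 374, 1093, 431 and 759 of all genes, in this order. DESeq2 called 0, 25, 0 and 0 genes and limma with the random replicate block 0 in each, and no member was among them. The members' median log2 fold change was 0.13, -0.03, 0.05 and 0.50, against -0.01, -0.01, -0.01 and 0.01 over all genes. Each batch holds a single treatment, so treatment and batch cannot be told apart.

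The largest treatment values were in stimulated T41B slices. C3 was 9.27, 13.7, 7.32 and 6.57 CPM with vehicle and 26.4, 33.6, 14.3, 23.9 and 8.89 CPM with BD10-2, a log2 fold change of 1.21 (SE 0.31, 95% interval 0.58 to 1.83, edgeR BH-adjusted p = 0.719). The highest vehicle slice and the lowest BD10-2 slice overlapped. C1qa had 0.76 (SE 0.20, interval 0.35 to 1.18, adjusted p = 0.719), C1qc 0.59 (0.18 to 0.99), C1qb 0.52 (0.14 to 0.91) and Serping1 0.50 (0.01 to 0.99), the last with groups that did not overlap. In stimulated T41B slices 8 of 10 microglial markers had an unadjusted edgeR p under 0.05 and 0 were called, with a median log2 fold change of 0.47 over the list, and their sum was 265 to 358 CPM with vehicle and 295 to 512 CPM with BD10-2. In sham T41B slices the members' log2 fold changes lay between -0.26 and 0.30. In the fit of all samples the interval there was -0.36 to 0.45 for C1qa and -0.15 to 0.55 for C5ar1, so a 2-fold change of either lies outside it. Without the samples high in Ttr the values went from 0.05 to 0.42 for C1qa and from 0.20 to 0.46 for C5ar1, still not called. The intervals of that fit are not given here.

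**Figure D5:**
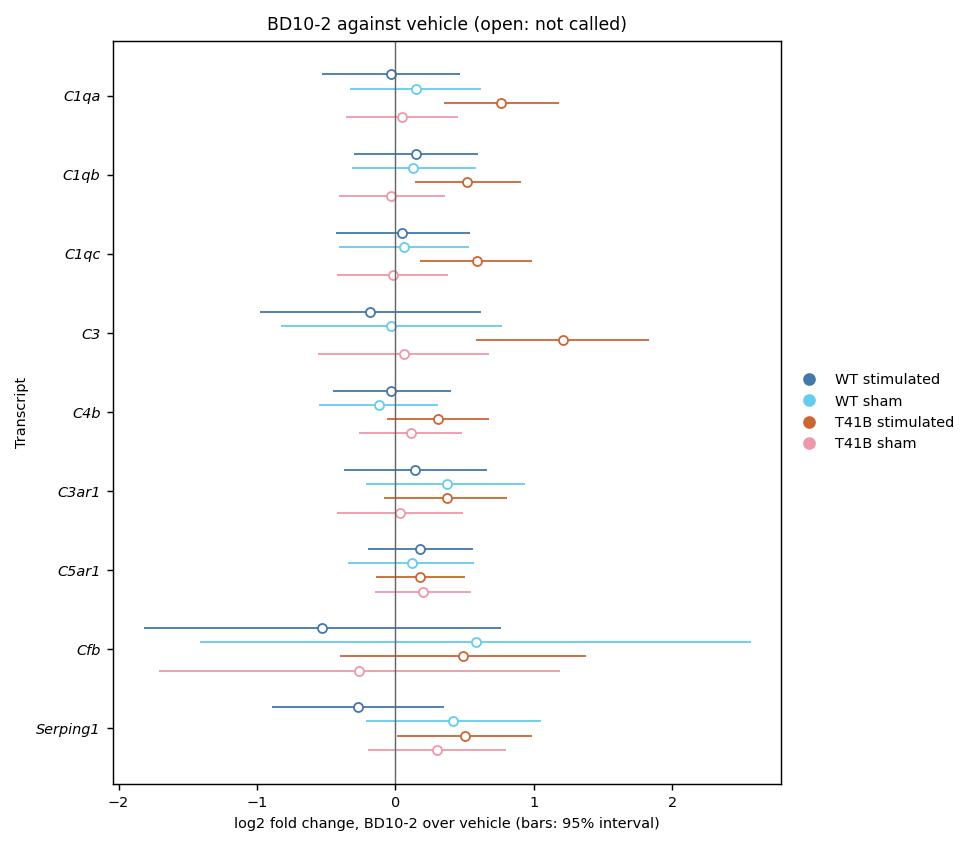
Log2 fold change of BD10-2 over vehicle for each member (horizontal axis) in the 4 combinations of genotype and stimulation, with bars for the 95% interval. All points are open, that is not called, and C3 in stimulated T41B slices lies farthest to the right among the members, at 1.21.

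Interactions tested whether the stimulation response itself differed between genotypes or treatments. None of the members was called, and 0% of all genes tested were called in each of the 4 interaction tests, with 1683, 846, 337 and 526 genes at an unadjusted edgeR p under 0.05 for T41B minus WT with vehicle and with BD10-2, and for BD10-2 minus vehicle in WT and in T41B mice. Of the 9 members, 1, 4, 0 and 4 were at such a p. DESeq2 called 4, 20, 0 and 1 genes and limma with the random replicate block 0, 5, 0 and 0, none of them members. The C1qa response in BD10-2 mice was 0.85 higher in T41B than in WT mice (log2, SE 0.32, edgeR BH-adjusted p = 0.855). In T41B mice it was 0.71 higher with BD10-2 than with vehicle (SE 0.28, edgeR BH-adjusted p = 1), and the C3 response was 1.15 higher (SE 0.43, edgeR BH-adjusted p = 1). The C1qa response of BD10-2 T41B mice was therefore not shown to differ from those of the other groups. For C5ar1 the 4 interaction values were between -0.16 and 0.06, with SEs of 0.23 to 0.29.

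Of 54 other complement genes in the pathway list, 33 passed the filter. In T41B against WT mice 5 of the 33 were called higher and 0 lower in vehicle sham slices, 5 and 2 in vehicle stimulated, 5 and 0 in BD10-2 sham and 11 and 4 in BD10-2 stimulated slices, with list medians of -0.09, 0.15, 0.09 and 0.13. Of all genes tested, 5.0%, 4.74%, 4.31% and 8.19% were called higher and 1.24%, 1.05%, 1.14% and 2.36% lower. Among the genes called higher in all 4 comparisons were the integrin chains that bind C3 fragments and the regulator Clu. Itgax, the alpha chain of complement receptor 4, was 0.473 CPM in WT and 14.6 CPM in T41B mice on average in vehicle sham slices, a log2 fold change of 4.94 (SE 0.38), and 3.76 to 4.84 in the other comparisons. Itgb2, the shared beta chain, had 1.70 to 1.95, and Itgam, the alpha chain of complement receptor 3, had 1.02 to 1.59. Clu, clusterin, had 0.58 to 0.73.

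Among the classical and lectin genes of that list 8 were tested, and 0, 0, 0 and 4 passed as higher in T41B mice, in the same order. None of the 2 terminal-pathway genes tested was called for genotype. Of 9 membrane and neural regulators tested, 0 were called higher in any genotype comparison, and 0, 2, 0 and 4 were called lower, in the same order. These 6, named after their values were seen, were different genes in the 2 comparisons. Cd55 (-1.06) and Cd59a (-1.32), which protect cells from complement, were called in vehicle stimulated slices, and in BD10-2 stimulated slices they had -0.51 and 0.65 and were not called. The vehicle stimulated groups include samples high in Ttr, and 2 of 9 choroid plexus markers were called lower there, with a median of -2.52. The part of choroid plexus RNA in the Cd55 and Cd59a values was not tested. Csmd1, Csmd2, Csmd3 and Susd4, membrane regulators expressed in neurons, were called in BD10-2 stimulated slices, at -0.39, -0.40, -0.49 and -0.28. In the other 3 comparisons, where they were not called, they had -0.35 to -0.12, -0.14 to -0.01, -0.25 to -0.22 and -0.16 to -0.06. Of 7 neuron markers 1, 2, 2 and 0 were called lower and 0 higher, in the same order of comparisons, with medians of -0.27, -0.31, -0.30 and -0.24, and their part in these differences was not tested.

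After stimulation, 1 of the 33 was called higher and 4 lower in vehicle WT, 3 and 4 in vehicle T41B, 0 and 4 in BD10-2 WT and 5 and 4 in BD10-2 T41B mice. Of all genes tested, 8.21%, 11.7%, 6.29% and 13.3% were called higher and 4.10%, 9.83%, 2.58% and 9.52% lower, so that several of these counts lie near or below the background. Itgam was lower in all 4, by -1.06, -0.91, -1.11 and -0.63. C5ar2, a scarce transcript for the other receptor for the C5 fragment, was lower in all 4 while C5ar1 was higher. It showed log2 fold changes of -1.48 (SE 0.44), -1.49 (SE 0.37), -1.41 (SE 0.45) and -0.87 (SE 0.30), with means of 0.175 to 0.610 CPM in stimulated and 0.507 to 1.13 CPM in sham groups. Vtn, vitronectin, an inhibitor of the terminal complex, was lower in 3 of 4 (-1.02, -1.19 and -0.67) and had -0.33 in vehicle T41B mice. C1ra, a C1 protease named after its values were seen, was called higher in vehicle and BD10-2 T41B mice (1.23 and 1.37).

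Across the 32 samples, the members formed patterns that can be described by the correlation of log2(CPM + 1). The samples share genotype and stimulation groups, so no p is given. C1qa and C1qc had Pearson's r = 0.99, C1qa and C1qb 0.96, and C3ar1 and C5ar1 0.95, whereas C1qa and C5ar1 had 0.28. C4b and Serping1 had 0.92. The genes outside the members with the highest r were Unc93b1 (0.984), Laptm5 (0.983) and Ly86 (0.978) for C1qa, Mpeg1 (0.942), Cmtm6 (0.936) and Arhgdib (0.934) for C3, Gfap (0.980), Ggta1 (0.970) and Fcer1g (0.967) for C4b, and Gpr84 (0.988), Lcp2 (0.980) and Tnfaip3 (0.979) for C5ar1.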

How the data were processed

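The authors deposited RSEM expected counts per gene, estimated read counts not scaled between libraries, for 36 libraries made, per the labels' protocols, from 200 ng of ribosomal RNA-depleted total RNA with a stranded kit. The submitters' processing notes list cutadapt 1.8.1, STAR 2.7.6a, RSEM 1.3.1, featureCounts 1.6 and SAMtools 1.11, without roles, and the builds GRCm38.p6 and mm10. The annotation release and the strand setting are not given in the sources used here. GENCODE M21 (GRCm38) supplied positions and exonic lengths, and 55154 of 55421 identifiers matched a symbol.

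Counts were rounded, and 4 pairs of libraries with the same mouse and stimulation labels were summed, leaving 32 samples. Chi-square over degrees of freedom was 7.44 to 28.89 within these pairs and 6.37 to 69.44 between mice of a group, so the libraries of a pair differed by more than sampling noise. Genes were filtered with filterByExpr (minimum count 10), scaled by TMM (factors 0.91 to 1.063) and tested with edgeR 4.0.16 (R 4.3.3) by the quasi-likelihood F test, in 1 fit of 8 groups, with Benjamini-Hochberg adjustment over 19478 genes. SEs are the absolute log2 fold change over the root of F. Scripts were tested on simulated data. Alternatives were the mouse block (fixed, or random in limma 3.58.1), batch, DESeq2 1.42.0, its size factors in edgeR, the groups compared alone, no filter, the first library of each pair and each mouse left out. Leaving out samples with Ttr of 10 CPM or more was chosen after seeing the data.

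Pairing comes from mouse labels. Deviations from group means had a mean r of 0.29 between slices of a mouse (14 pairs, 0.05 to 0.55) and of -0.08 between different mice (52 pairs, -0.52 to 0.44), with ranges that overlap.

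The members and gene lists were chosen with earlier results of these data known. All 9 members are named. From the pathway list, genes called in at least 3 of 4 genotype or 3 of 4 stimulation comparisons are named, except for a result that is not reported here, and for likeness the 3 genes with the highest Pearson r to each of 4 members.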

Additional observations from a re-analysis of the deposited data

Results flagged for a closer look

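Among 54 combinations of a member and a group of 4 or 5 samples, 3 held a sample far from the rest by Dixon's criterion, where chance flags about 1 in 20. C1qb was 37.2 CPM in the vehicle WT sham slice of Mouse1524, against 26 to 26.9 CPM in the other 3. C3ar1 was 36.8 CPM in the vehicle T41B stimulated slice of Mouse1551, a sample high in Ttr, against 24.5 to 25.1 CPM. Cfb was 0.532 CPM in the BD10-2 T41B stimulated slice of Mouse1592, against 1.99 to 2.51 CPM, and 1 of the 2 libraries of that slice had the lowest Thy1 level of all T41B libraries.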

How the results depend on the processing

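No member's log2 fold change, where called, changed sign under any alternative run. Of 934 values recomputed for genotype, 923 kept their call, 9 lost it and 2 gained it, and of 968 for stimulation 919 kept it, 22 lost it and 27 gained it. All 898 treatment and 935 interaction values stayed not called. The number of members called for genotype in vehicle stimulated slices fell from 8 to 5 without the samples high in Ttr, and for stimulation it fell from 5 to 3 in vehicle WT and in vehicle T41B mice. In vehicle WT mice 3 of the 8 members tested were called when the fit held these 2 groups alone: C1qc lost its call, and Cfb did not pass the filter on low counts there. The count ranged from 3 to 5 with single mice left out (3 without Mouse1509, Mouse1513 or Mouse1522). The cause was not tested, beyond the fewer samples that these settings hold. With the mouse as a fixed replicate block, 5, 6, 4 and 4 members were called for stimulation in vehicle WT, vehicle T41B, BD10-2 WT and BD10-2 T41B mice, against 5, 5, 3 and 4 without it, and with a random block in limma (correlation 0.34) 5, 6, 4 and 6. Apart from the calls given with the results, the fixed block changed no stimulation call of a member. Cfb had 5 to 17 counts per group of sham slices, and the effect of depth on its calls was not tested.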
